A study of Caenorhabditis elegans with 22 samples.

Results

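F15D4.5, fezf-1, W09B7.1, F07B7.1, R13H4.5, Y38F2AL.12 and K09B3.1 are 7 protein-coding loci of Caenorhabditis elegans, of 46780 gene IDs in the small RNA tables, that carried less small RNA in animals without ADARs. They were chosen by their small RNA values in adr-1;adr-2 mutants against wild type, so those values are given as a description and carry no test. Their small RNA in eri-6 mutants, and above all their total RNA and mRNA, were not used for the choice. The eri-6 comparison still shares its wild-type libraries with the one that chose the loci.

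ADARs are enzymes that deaminate adenosine to inosine where RNA is double-stranded. The genes adr-1 and adr-2 encode the worm family, and ADR-2 is its active deaminase. In worms an RNA can be silenced by short interfering RNAs (siRNAs) that RNA-dependent RNA polymerases copy from it and that Argonaute proteins carry. Double-stranded RNA is a substrate of both ADARs and Dicer, and the eri-6 and eri-7 genes together make a helicase of the ERGO-1 siRNA pathway.

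The series holds 22 samples of whole young adults with embryos, 70 h after L1 arrest and grown for 71 h at 20 °C, with 8 small RNA, 8 total RNA and 6 mRNA libraries. Small RNA of 18 to 28 nt was treated with a 5′ polyphosphatase, which makes siRNAs with a 5′ triphosphate clonable. The small RNA and total RNA sets each held 2 libraries of adr-1 eri-6;adr-2, adr-1;adr-2, eri-6 and wild type, raised on OP50 bacteria per the labels' protocols. The mRNA set held 1 library of adr-1 eri-6;adr-2 and 1 of wild type on HT115 bacteria for drh-1 RNAi, nrde-3 RNAi and control RNAi (L4440). The strain of adr-1 eri-6;adr-2, called the triple mutant from here on, was GR1744 in every set, with the alleles gv6 of adr-1, mg379 of eri-6 and gv42 of adr-2. In small RNA the double mutant adr-1;adr-2 was BB4 with the alleles gv6 and gv42 as replicate 1, and BB21 with tm668 and ok735 as replicate 2. Both total RNA libraries of the double mutant are labelled as strain BB4 with the alleles of BB21, so strain name and alleles do not match there. The eri-6 mutant was GR1814, eri-6(mg379). Wild-type small RNA came from GR1831, a strain with the transgene mgIs30, as replicate 1 and from N2 as replicate 2, and N2 was also the strain of the other wild-type sets. The labels do not say that replicates came from separate cultures, and in whole animals fewer cells that express a gene and less RNA per cell cannot be told apart.

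The 6 small RNA libraries of adr-1;adr-2, eri-6 and wild type held between 10904105 and 32303754 reads. They differed by replicate number more than by genotype in makeup, since microRNAs took 39.1% to 39.8% of reads in the replicates numbered 1 and 21.3% to 24.7% in those numbered 2. Each low locus is therefore also given within its replicate number. At the mutated genes, small RNA was lower in the double mutant in both libraries. The adr-1 locus had 67.9 and 85.3 normalised reads in adr-1;adr-2, against 328 and 621 in wild type, and adr-2 had 124 and 138 in adr-1;adr-2, against 257 and 515 in wild type. In mRNA on control RNAi adr-1 had 17.7 FPKM in the triple mutant, against 23.8 FPKM in wild type. The eri-6 transcript stood at 5.73 FPKM in triple-mutant total RNA and 5.35 FPKM in eri-6, against 17.8 FPKM in wild type.

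F15D4.5 (WBGene00008862, chrII:13245376-13247774, build WBcel235) held far more small RNA than the other loci, and in the eri-6 mutant its small RNA overlapped wild type. It had 1843 and 1766 normalised reads in adr-1;adr-2, against 14161 and 41311 in wild type. Both mutant libraries lay below both wild-type libraries, and the wild-type mean was 15.4 times the mutant mean. The spread lay almost wholly in wild type, where N2 (replicate 2) had 2.92 times the value of GR1831 (replicate 1). In the double mutant BB21 (replicate 2) had 0.959 times the value of BB4 (replicate 1). In eri-6, labelled as 1 strain, replicate 2 had 1.99 times the value of replicate 1, so strain and replicate number cannot be told apart in wild type. The log2 fold of adr-1;adr-2 was −2.89 within replicate number 1 and −4.46 within number 2. The reads behind the adr-1;adr-2 comparison were 2606 and 1553 in adr-1;adr-2, against 15889 and 29211 in wild type.

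Small RNA was also low at the nearest gene on 1 side of F15D4.5, though counts per gene do not cover the stretch between the genes. The annotated body of F15D4.5 holds a pair of piRNA loci, entries for the short RNAs that bind the Argonaute PRG-1. The piRNA locus 21ur-10687 had 11.3 and 51.2 normalised reads in adr-1;adr-2, against 283 and 808 in wild type. The piRNA locus 21ur-10492 had 23.3 and 21.6 normalised reads in the double mutant, against 446 and 1404 in wild type, a log2 fold of −5.08. They held 0.614% to 3.4% as many reads as F15D4.5 in each of the 4 libraries, and whether those reads are piRNAs or siRNAs of the host cannot be told from counts per gene. F15D4.6, which begins 1412 bp beyond the higher-coordinate end, had 303 and 1701 normalised reads in the double mutant, against 2181 and 5343 in wild type. Both double-mutant libraries of F15D4.6 were below both wild-type libraries, which held for 9.48% of the 23975 genes tested. Its log2 fold was −2.25, but its double-mutant libraries differed from each other far more than those of F15D4.5. On the other side F15D4.4, 2255 bp away, had 147 and 76.2 normalised reads in the double mutant and 44.6 and 137 in wild type, which overlap. Beyond it, flp-16, which encodes FMRFamide-like neuropeptides, had a log2 fold of 0.44, and romo-1 had 0.25.

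**Figure D1:**
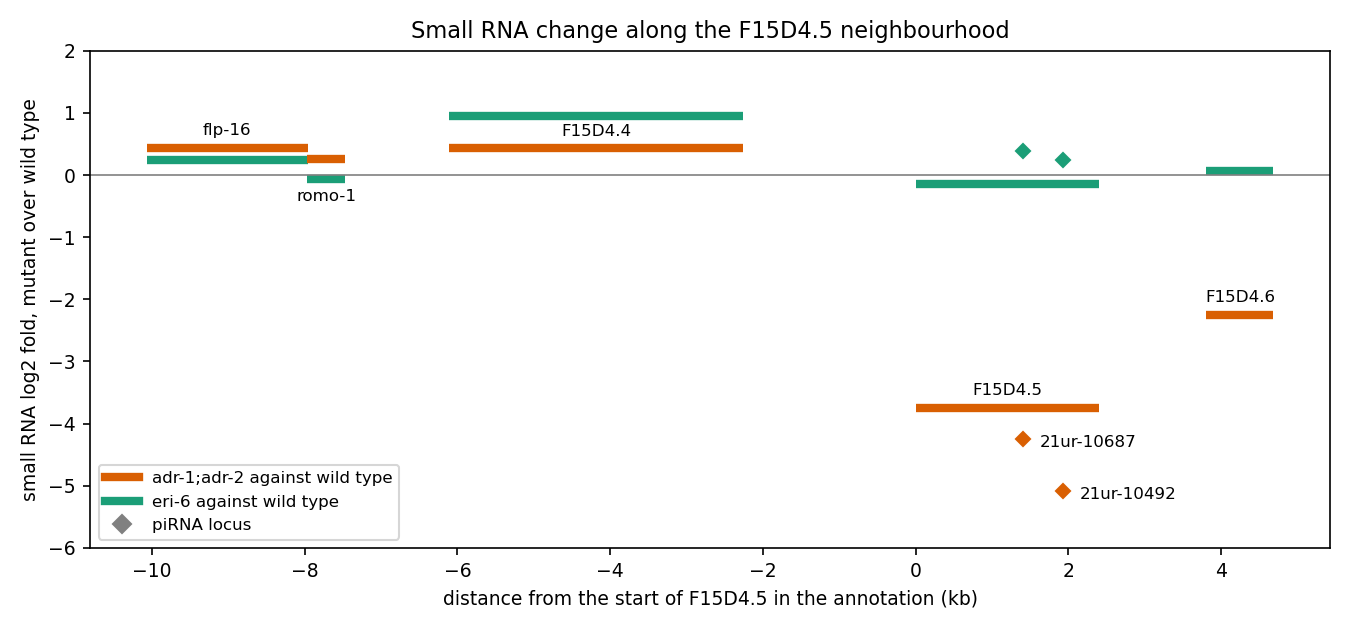
Small RNA log2 fold, adr-1;adr-2 over wild type (orange) and eri-6 over wild type (green), for each annotated gene (bars, drawn at their extent) and piRNA locus (diamonds) by distance in kb from the start of F15D4.5 in the annotation. F15D4.5, both piRNA loci inside it and F15D4.6 lie between −2.25 and −5.08 in adr-1;adr-2, while the genes on the other side lie between 0.25 and 0.44; in eri-6 the piRNA loci, F15D4.5 and F15D4.6 lie between −0.14 and 0.39.

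W09B7.1 (WBGene00021106, chrV:8830183-8831441) and F07B7.1 (WBGene00017185, chrV:8872277-8873535) behaved as a single locus. W09B7.1 had 218 and 72.8 normalised reads in adr-1;adr-2, against 1523 and 3346 in wild type. F07B7.1 had 239.7 and 83.0 in the double mutant, against 1610.4 and 3330.5 in wild type. Both annotations are 1259 bp long, and W09B7.1 and the genes W09B7.2, W09B7.3 and C01B7.7 each have a partner of the same length exactly 42094 bp further along chromosome V. F07B7.1 held 0.995 to 1.14 times as many reads as W09B7.1 in each of the 6 libraries. Within replicate number 1 the log2 fold was −2.74 for W09B7.1 and −2.68 for F07B7.1, and within number 2 it was −5.41 and −5.21. Reads of near-identical copies may have been counted to either, so these are not independent members.

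The genes around both copies were lower too, though by less. W09B7.2 had 465 and 278 normalised reads in adr-1;adr-2, against 1103 and 1294 in wild type, and its copy F07B7.2 had 461 and 281 in the double mutant, against 1131 and 1319 in wild type. F07B7.7, which follows W09B7.1 and has no copy at that distance, had 66.5 and 68.2 in the double mutant, against 249.5 and 564 in wild type. The pseudogene EGAP798.1, which follows F07B7.1, had 163 and 188 in the double mutant, against 381 and 791 in wild type. In none of these 4 genes did the double-mutant and wild-type libraries overlap, where 9.48% of the 23975 genes tested had both double-mutant libraries below both wild-type libraries.

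The remaining 4 loci carried little small RNA even in wild type. The gene fezf-1 (WBGene00012639, chrIV:13466097-13469399), a FEZ-family zinc-finger transcription factor gene, had 5.66 and 3.41 normalised reads in adr-1;adr-2, against 106 and 187 in wild type. Its log2 fold of −4.71 was the lowest of the 7, and it rests on 8 and 3 reads in the double mutant, against 119 and 132 reads in wild type. The log2 fold of fezf-1 was −3.78 within replicate number 1 and −5.08 within number 2. R13H4.5 (WBGene00011263, chrV:11860675-11862289) had 4.24 and 7.96 normalised reads in the double mutant, against 68.6 and 122 in wild type. These are 6 and 7 reads in the double mutant, and the nearest gene, R13H4.6, averaged 1.28 normalised reads in the double mutant, against 1.15 in wild type. R13H4.5 varied least by replicate number, with log2 folds of −3.46 within number 1 and −3.57 within number 2.

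Y38F2AL.12 and K09B3.1 differed from the others in that wild-type replicate 1, not 2, was the higher. Y38F2AL.12 (WBGene00219413, chrIV:2316573-2318673) had 9.90 and 20.5 normalised reads in adr-1;adr-2, against 215 and 133 in wild type. These are 14 and 18 reads in the double mutant. The log2 fold of Y38F2AL.12 was −4.14 within replicate number 1 and −2.51 within number 2. The gene overlaps the piRNA locus 21ur-15630, whose count was 33.2% to 66.7% of that of the gene in the 4 libraries. The piRNA locus was low in the same libraries, with 4.24 and 13.6 normalised reads in the double mutant, against 71.3 and 46.7 in wild type. The flanking genes vha-3, which encodes a subunit of the vacuolar proton pump, and nsy-4, which encodes a claudin-like protein, had log2 folds of 0.03 and 0.29.

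K09B3.1 (WBGene00019545, chrIV:3794737-3796318) had 21.2 and 5.69 normalised reads in adr-1;adr-2, against 120.3 and 89.1 in wild type. These are 30 and 5 reads in the double mutant. The double-mutant libraries differed more from each other here than at any other of the 7 loci. K09B3.1 had log2 folds of −2.35 within replicate number 1 and −3.51 within number 2. It overlaps by 19 bp with osm-3, which encodes a kinesin motor of sensory cilia. The osm-3 locus had 346 and 1805 normalised reads in the double mutant, against 2449 and 4931 in wild type. Strand was not used here to separate the 2 genes, and the sources used here do not give how the authors' counting treated strand.

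**Figure D2:**
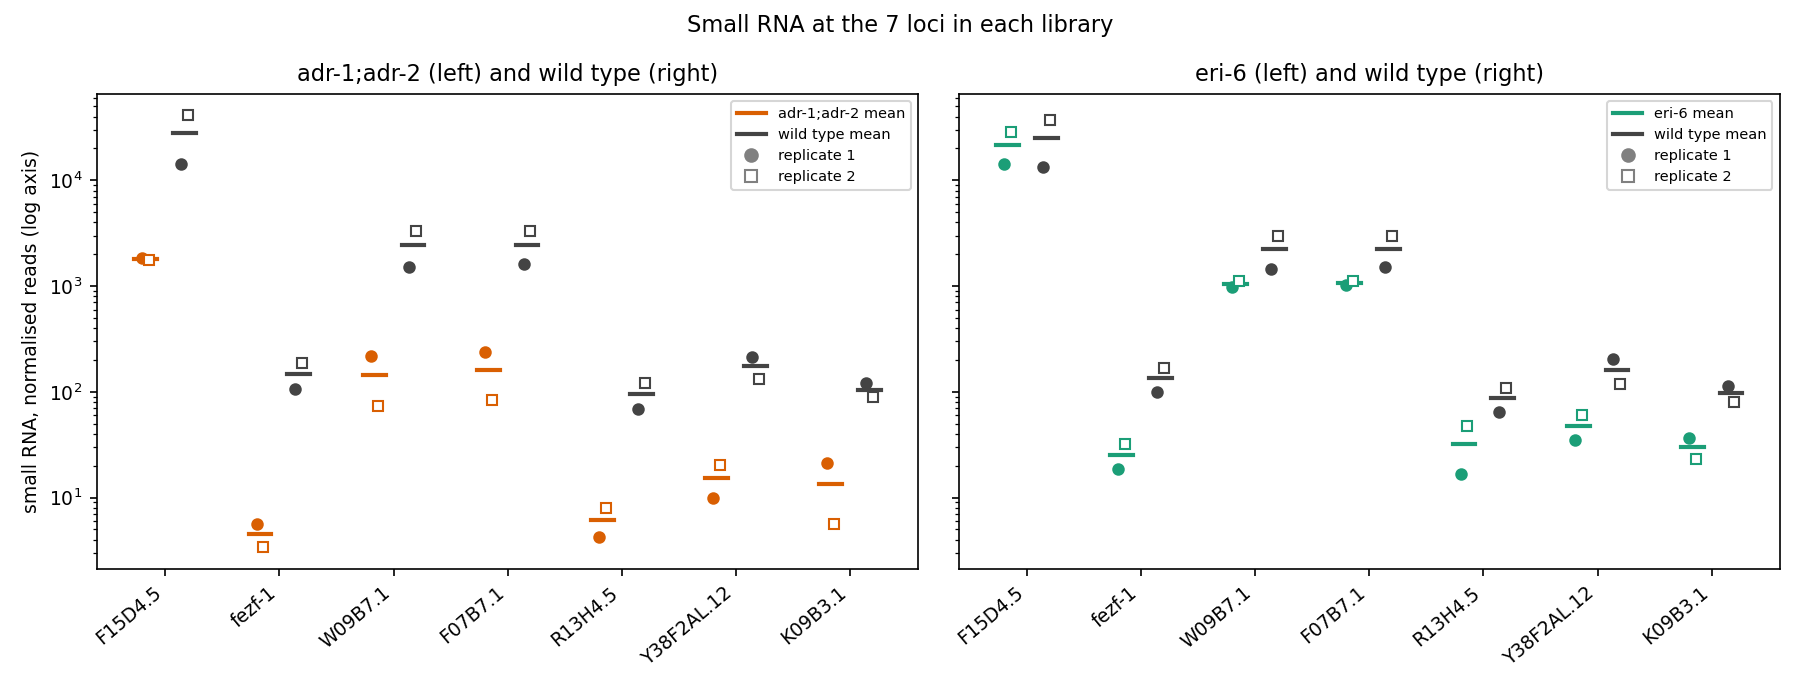
Normalised small RNA reads (log axis) at the 7 loci in each library, as deposited, with the mutant left of wild type in each pair, circles for replicate 1, squares for replicate 2 and bars for means of 2 libraries. In adr-1;adr-2 every locus lies below both wild-type libraries, which is how the loci were chosen; in eri-6, F15D4.5 overlaps wild type and the other 6 lie below wild type. The tables were scaled separately.

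Set per kilobase of annotated gene, wild-type small RNA fell into a clear order at the top and none at the bottom. F15D4.5 had 5903 and 17219.9 normalised reads per kb in wild type, above every other locus in both libraries. F07B7.1 had 1279 and 2645 per kb and W09B7.1 had 1209.8 and 2658 per kb, which overlap. Y38F2AL.12, K09B3.1, R13H4.5 and fezf-1 averaged 82.8, 66.2, 58.9 and 44.3 per kb in wild type, and each of them overlaps the next in that order.

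All 7 loci stood inside a simple size rule for the contrast that chose them, and nothing is read from this count. The rule asks that every adr-1;adr-2 library be at least 4-fold below every wild-type library on the value plus 1, and 18 of 23975 genes met it (0.0751%). The fold between nearest libraries was 16.1 for fezf-1, 7.77 for R13H4.5, 7.68 for F15D4.5, 6.97 for W09B7.1, 6.70 for F07B7.1 and 6.24 for Y38F2AL.12. K09B3.1 was the one near the edge, at 4.06, with Y116F11B.10 just inside at 4.005 and F31C3.6 and flp-25 just outside at 3.99 and 3.97. With 1 wild-type library left out, 179 genes met the rule without the transgenic strain and 355 without N2. The 7 loci were among them each time, which was fixed in advance, since leaving out a wild-type library cannot narrow the gap.

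Among the 10679 genes that averaged 100 reads or more per library, the 5 whose small RNA followed F15D4.5 most closely over the 6 libraries were C44B12.3, F07B7.7, WBGene00022607, adr-1 and C07D8.2. Pearson's r of their log2 values with F15D4.5 was 0.999, 0.995, 0.995, 0.994 and 0.994, a description over 6 libraries of 3 genotypes that also share a difference between replicate numbers. All 5 had lower values in both adr-1;adr-2 libraries than in any of the 4 other libraries. Picking genes by likeness to F15D4.5, which has that pattern, largely fixed this in advance. The adr-1 locus, which carries the mutation itself, had 299.8 and 411 normalised reads in eri-6, against 310.4 and 557 in wild type. F07B7.7 had 315 and 467 in eri-6, against 236 and 506 in wild type. The same r was 0.946 for W09B7.1, 0.942 for F07B7.1, 0.877 for R13H4.5, 0.799 for fezf-1, 0.75 for Y38F2AL.12 and 0.663 for K09B3.1. The last 4 averaged 39.5, 52.0, 76.8 and 49.5 reads, under the minimum of 100, so their r is not on a like footing. These loci were chosen as low in adr-1;adr-2, so each r is a description.

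In eri-6 mutants, which still have both ADARs, F15D4.5 overlapped wild type in small RNA while the other 6 loci lay below it. F15D4.5 had 14366 and 28522 normalised reads in eri-6, against 13403 and 37064 in wild type, a log2 fold of −0.14 ± 0.97 (SE). The groups overlap, and the log2 fold turned to 0.36 without eri-6 replicate 1 and to 0.60 without wild-type replicate 2. It was 0.02 within replicate number 1 and −0.31 within number 2. The piRNA loci inside it also overlapped wild type, 21ur-10492 with 683 and 1078 in eri-6 against 422 and 1260.0 in wild type, and 21ur-10687 with 272 and 1235 in eri-6 against 268 and 725 in wild type. F15D4.6 had 2369 and 4606 in eri-6, against 2064 and 4794 in wild type.

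The largest of the other differences in eri-6 was at fezf-1, with 18.5 and 32.3 normalised reads in eri-6, against 100.4 and 167 in wild type, a log2 fold of −2.36 ± 0.84 (SE). Y38F2AL.12 had 35.3 and 60.1 in eri-6, against 203 and 119 in wild type, a log2 fold of −1.74. K09B3.1 had 36.9 and 23.1 in eri-6, against 114 and 79.9 in wild type, a log2 fold of −1.67. All 3 had no overlap between the groups. R13H4.5 had 16.8 and 47.4 in eri-6, against 65.0 and 109 in wild type. W09B7.1 had 987 and 1117 in eri-6, against 1442 and 3002 in wild type. F07B7.1 had 1033 and 1118 in eri-6, against 1524 and 2988 in wild type. Thus 6 of 7 loci had both eri-6 libraries below both wild-type libraries, as did 7.4% of the 23380 genes tested. None met the 4-fold rule in eri-6, which 0.672% of genes met on the low side, and fezf-1 came nearest with 3.04-fold between nearest libraries.

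No difference at the 7 loci in eri-6 passed limma's test with Benjamini-Hochberg adjustment, at an adjusted p = 1.0 for each. That test called 0 of 23380 genes lower (0%) and 0 higher, with 237 genes at an unadjusted p under 0.05. On the recovered reads edgeR called 0 genes, and DESeq2 called 125 lower and 15 higher. Joint scaling of the 6 libraries gave 61 lower and 1 higher in limma, and the replicate number as a term gave 98 lower and 8 higher. None of the genes called lower in any of these was among the 7. The 2 wild-type libraries are those on which the loci were chosen, so the count of 6 is given beside the choice and not as a separate result.

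The small RNA table of the triple mutant holds 381 genes that the authors selected, and of the 7 loci it gives F15D4.5. F15D4.5 had 2353 and 2501 normalised reads in the triple mutant, against 16609 and 48841 in wild type. Both triple-mutant libraries lay below wild type, whose mean was 13.5 times as high, close to the 15.4 times of adr-1;adr-2, in a table scaled separately but on the same wild-type samples. The piRNA locus 21ur-10492 had 46.0 and 30.3 normalised reads in the triple mutant, against 523 and 1660.3 in wild type. The 21ur-10687 locus had 16.4 and 35.9 in the triple mutant, against 332 and 955 in wild type. The other 6 loci were not among the selected genes, so their small RNA in the triple mutant is unknown here.

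Total RNA, which had no part in the choice, was higher at F15D4.5 in both genotypes without ADARs. F15D4.5 stood at 20.4 FPKM (deposited bounds 15.3 to 25.5) in the triple mutant, at 10.5 FPKM (7.64 to 13.4) in adr-1;adr-2 and at 0.797 FPKM (0.337 to 1.26) in eri-6, against 0.960 FPKM (0.470 to 1.45) in wild type. The bounds of both ADAR mutants lay wholly above those of wild type, and those of eri-6 overlapped them. FPKM counts fragments per kilobase of transcript, scaled to library size, with 1 value per genotype over 2 libraries, and a gene was called where deposited bounds did not overlap. On the log2(FPKM + 1) scale, which understates changes of low genes, the difference was 3.45 in the triple mutant and 2.55 in the double mutant. This placed F15D4.5 at rank 149 of 11420 genes and rank 332 of 11556 genes, counted from the highest. The ranks are over genes of at least 1 FPKM in either genotype. F15D4.5 entered these sets only through the mutants in which it was high, so its ranks are a description.

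The triple mutant also stood above adr-1;adr-2. F15D4.5 was 1.94 times as high in the triple mutant as in adr-1;adr-2, with bounds apart, as were those of 3.01% of 11431 genes in that direction. The alleles of these genotypes may differ by the labels, so eri-6 and allele cannot be told apart in this comparison.

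Of the other 6 loci none passed the bounds rule in total RNA, and R13H4.5 alone could have been called. The rest had lower bounds of 0 in every genotype, so no call in either direction was possible for them. R13H4.5 had 5.22 FPKM in the triple mutant, 4.21 in adr-1;adr-2 and 6.12 in eri-6, against 5.62 in wild type, with all bounds overlapping. Y38F2AL.12 had 11.8 FPKM in the triple mutant, 23.2 in the double mutant and 1.68 in eri-6, against 12.8 in wild type, and every lower bound was 0. The gene fezf-1 had 0.122 to 0.619 FPKM in the mutants, against 0.1996 FPKM in wild type, and K09B3.1 had at most 0.253 FPKM and was listed at 0 in wild type. W09B7.1 and F07B7.1 were listed at 0 in every genotype.

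**Figure D3:**
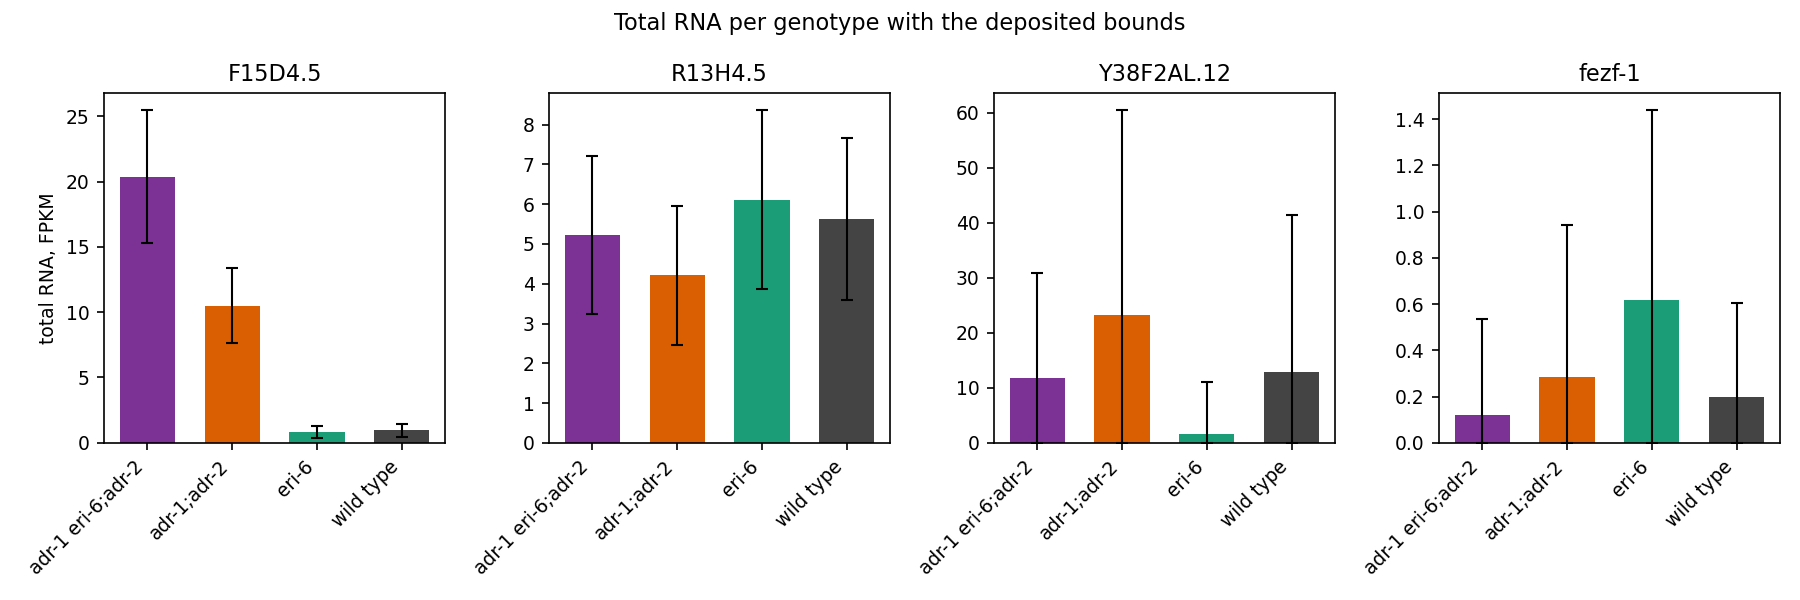
Total RNA (FPKM, linear axes from 0) of F15D4.5, R13H4.5, Y38F2AL.12 and fezf-1, as 1 deposited value per genotype over 2 libraries with the deposited lower and upper bounds as error bars. F15D4.5 stands at 20.4 FPKM in adr-1 eri-6;adr-2 and 10.5 in adr-1;adr-2 with bounds above those of wild type, and the bounds of the other 3 genes overlap wild type.

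Counted over the loci, 3 of 7 passed the minimum of 1 FPKM (F15D4.5, R13H4.5 and Y38F2AL.12), and 1 was higher, in the triple mutant and the double mutant alike, where 21.6% and 21.1% of genes tested were higher. F15D4.5 passed that minimum only through the mutants in which it was high. Y38F2AL.12, with lower bounds of 0 in every genotype, could not be called in any comparison. In the eri-6 comparison F15D4.5 did not pass the minimum, and R13H4.5 was not called, where 12.6% of genes were higher and 7.39% lower. Next to F15D4.5, F15D4.6 had 2.41 FPKM in the triple mutant, 2.30 in adr-1;adr-2 and 0.656 in eri-6, against 1.16 in wild type, with overlapping bounds. F15D4.4 was lower in all 3 mutants, with 0.3799 FPKM in the triple mutant, 0.426 in adr-1;adr-2 and 0.546 in eri-6, against 2.496 in wild type, and its mutant bounds lay below those of wild type.

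Germline transcripts moved with genotype in the same total RNA libraries. Of all genes tested, 21.6% were higher in the triple mutant, 21.1% in the double mutant and 12.6% in eri-6. Of 8 oocyte and embryo markers measured, 8 were higher in the triple mutant, 8 in the double mutant and 6 in eri-6, and none was at 0. Their summed level was 751 FPKM in the triple mutant, 847 in the double mutant and 290.4 in eri-6, against 137 in wild type. Sperm markers summed to 367 FPKM in the triple mutant, 338 in the double mutant and 319 in eri-6, against 115 in wild type, with 16 of 29, 17 of 30 and 13 of 28 tested members higher; msp-52 and msp-58 were listed at 0. Yolk genes, made in the intestine, summed to 533 FPKM in the triple mutant, 1044 in the double mutant and 581 in eri-6, against 1348 in wild type, with 4, 0 and 5 of 6 lower, where 18.4% of all genes tested were lower in the triple mutant, 14.8% in the double mutant and 7.39% in eri-6. Cuticle genes had 29 of 76 tested higher and 7 lower in the triple mutant, 23 of 72 higher and 6 lower in the double mutant and 1 of 58 higher and 3 lower in eri-6, and of 5 neuron markers none was called. The part of these lists in the F15D4.5 result was not tested.

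The other genes of the siRNA pathways were given from 1 list of 50 genes. In total RNA 18 of 31 tested were higher and 2 lower in the triple mutant, 22 of 30 higher and 0 lower in the double mutant, and 6 of 30 higher and 1 lower in eri-6. Over all genes tested, 21.6% were higher and 18.4% lower in the triple mutant, 21.1% and 14.8% in the double mutant, and 12.6% and 7.39% in eri-6. The list's median log2 folds were 1.15, 1.23 and 0.38, where all genes tested had 0.08, 0.13 and 0.12. The rrf-3 gene, which encodes the RNA-dependent RNA polymerase of the 26G siRNA pathway, had 17.5 FPKM in the triple mutant, 17.6 in the double mutant and 4.23 in eri-6, against 2.23 in wild type. The ego-1 gene, which encodes a germline RNA-dependent RNA polymerase, had 41.4 FPKM in the triple mutant, 46.4 in the double mutant and 14.6 in eri-6, against 7.204 in wild type. All 6 of these differences were calls by the bounds, in the same order over genotypes as the oocyte and embryo markers given above, whose part in them was not tested. The 2 lower genes in the triple mutant were eri-6 itself and sago-2, a secondary Argonaute gene.

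The mRNA libraries asked whether RNA levels in the triple mutant depend on DRH-1, a RIG-I-like helicase of the antiviral RNAi response, or on NRDE-3, the Argonaute that takes siRNAs to somatic nuclei. Each condition is 1 library with no replicate check, and the control libraries appear in 2 tables scaled separately. The targeted genes come before the loci because they check the labels. The drh-1 gene had 65.4 FPKM in the triple-mutant library labelled drh-1 RNAi, against 19.0 FPKM on control RNAi, and 32.3 FPKM in the wild-type library labelled drh-1 RNAi, against 14.3 FPKM on control RNAi. It was thus higher in both libraries labelled drh-1 RNAi, so no knockdown shows in its level, and the cause was not tested. On nrde-3 RNAi drh-1 had 14.9 FPKM in the triple mutant, against 20.6 FPKM on control RNAi. In wild type it had 16.3 FPKM on nrde-3 RNAi, against 15.5 FPKM on control RNAi. The nrde-3 gene had 8.08 FPKM in the triple mutant on nrde-3 RNAi, against 15.4 FPKM on control RNAi, and 5.26 FPKM in wild type on nrde-3 RNAi, against 5.755 FPKM on control RNAi. It was low as well in the triple-mutant library labelled drh-1 RNAi, at 5.47 FPKM against 14.2 FPKM on control RNAi in that table, so the low value was not limited to the library labelled nrde-3 RNAi.

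F15D4.5 mRNA was high in the triple mutant in all 3 pairs of libraries. On control RNAi it had 47.3 FPKM in the triple mutant, against 1.46 FPKM in wild type. Between libraries labelled drh-1 RNAi it had 42.7 FPKM in the triple mutant, against 1.81 FPKM in wild type. Those libraries had more drh-1 RNA than on control RNAi, so no knockdown shows in them. On nrde-3 RNAi F15D4.5 had 54.7 FPKM in the triple mutant, against 1.44 FPKM in wild type. The triple-mutant libraries were thus all far above the wild-type libraries. The differences on the log2(FPKM + 1) scale were 4.30 on control RNAi, 3.96 between libraries labelled drh-1 RNAi and 4.51 on nrde-3 RNAi. F15D4.5 ranked 59 of 12310 genes, 61 of 11707 and 51 of 12266 from the highest, and it was past the 4-fold mark used here each time.

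F15D4.5 stayed within 4-fold of control RNAi in the libraries labelled drh-1 RNAi and nrde-3 RNAi, whose target levels are given above. The log2 difference of the library labelled drh-1 RNAi from control RNAi was −0.14 in the triple mutant and 0.19 in wild type. That of nrde-3 RNAi from control RNAi was 0.09 in the triple mutant, from 54.7 FPKM on nrde-3 RNAi against 51.3 FPKM on control RNAi as scaled in that table, and −0.08 in wild type. For the libraries labelled drh-1 RNAi, 1.17% of genes were past 4-fold higher and 3.22% lower in the triple mutant, and 1.15% higher and 1.27% lower in wild type. For nrde-3 RNAi, 1.19% were higher and 1.85% lower in the triple mutant, and 1.45% higher and 1.21% lower in wild type.

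F15D4.6, the neighbour that also had less small RNA in adr-1;adr-2, had more mRNA in the triple mutant as well. It had 12.5 FPKM in the triple mutant on control RNAi, against 2.53 FPKM in wild type, a log2 difference of 1.94 that stays short of 4-fold. It had 19.4 FPKM in the triple mutant, against 2.85 FPKM in wild type, in the libraries labelled drh-1 RNAi. On nrde-3 RNAi it had 18.0 FPKM in the triple mutant, against 2.22 FPKM in wild type. The log2 differences of 2.40 and 2.56 on those foods were past 4-fold.

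**Figure D4:**
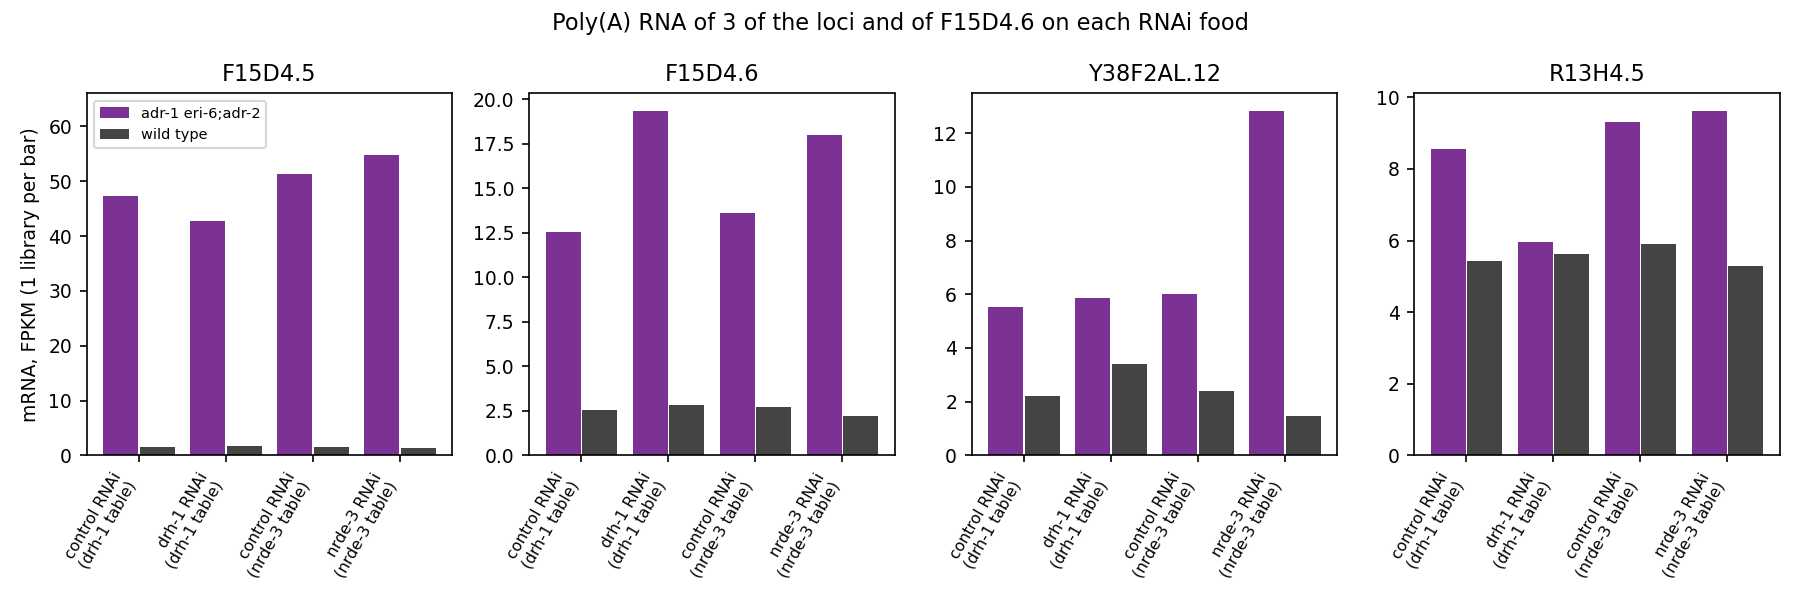
Polyadenylated RNA (FPKM, linear axes from 0) of F15D4.5, its neighbour F15D4.6, Y38F2AL.12 and R13H4.5 in adr-1 eri-6;adr-2 (purple, left) and wild type (grey, right), 1 library per bar, with each control pair shown as scaled in the drh-1 and in the nrde-3 table. F15D4.5 stands between 42.7 and 54.7 FPKM in every adr-1 eri-6;adr-2 bar and between 1.44 and 1.81 FPKM in every wild-type bar.

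The other loci showed smaller mRNA differences. Y38F2AL.12 had 5.51 FPKM in the triple mutant on control RNAi, against 2.21 FPKM in wild type. On nrde-3 RNAi Y38F2AL.12 had 12.8 FPKM in the triple mutant, against 1.48 FPKM in wild type, a log2 difference of 2.48 past 4-fold. R13H4.5 had 8.56 FPKM in the triple mutant on control RNAi, against 5.43 FPKM in wild type, and 9.63 FPKM in the triple mutant on nrde-3 RNAi, against 5.28 FPKM in wild type. In the libraries labelled drh-1 RNAi R13H4.5 was nearly level, at 5.96 FPKM in the triple mutant and 5.61 FPKM in wild type. The fezf-1 and K09B3.1 genes stayed under 1 FPKM in every library, and W09B7.1 and F07B7.1 were listed at 0.

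In count, 1 of the 7 loci was higher past 4-fold in the triple mutant on control RNAi (F15D4.5) and 1 between libraries labelled drh-1 RNAi (F15D4.5), where 3.26% and 2.84% of genes tested were. On nrde-3 RNAi 2 loci were (F15D4.5 and Y38F2AL.12), where 2.69% of genes were. No locus was lower past 4-fold, where 1.73% of genes were on control RNAi, 1.61% between libraries labelled drh-1 RNAi and 1.57% on nrde-3 RNAi. F15D4.5, R13H4.5 and Y38F2AL.12 reached 1 FPKM in each pair, and loci under 1 FPKM cannot pass 4-fold on FPKM plus 1. Of the oocyte and embryo markers 0 of 10 were past 4-fold in each of the 3 pairs, with a summed level of 4247 FPKM in the triple mutant and 2543 FPKM in wild type on control RNAi. Of the sperm markers 20 of 31 tested were higher on control RNAi, 17 of 27 between libraries labelled drh-1 RNAi and 7 of 25 on nrde-3 RNAi, with a summed level of 267 FPKM in the triple mutant and 25.2 FPKM in wild type on control RNAi, and their part in the F15D4.5 value was not tested. Of the siRNA pathway list, 0 of 40 genes tested were past 4-fold in the triple mutant on control RNAi. In the triple-mutant library labelled drh-1 RNAi 8 of 40 were past 4-fold lower than on control RNAi, where 3.22% of all genes tested were.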

How the data were processed

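The submitters' processing notes name TopHat2, Cufflinks, Cuffdiff, BWA, Trim Galore, featureCounts and DESeq2 with build WBcel235, and their versions, roles and settings were not known here. Per gene and small RNA library, the authors deposited a normalised signal. All of them (100%) were whole reads times 1 factor per library, within 0.01 read, so reads were recovered, except for the 381 selected genes of the triple mutant, whose depth is unknown. The authors deposited total RNA as FPKM per genotype with bounds of unstated level, and mRNA as FPKM per library; their depth is unknown. Entries with repeated gene IDs, 321 in total RNA and 344 in mRNA, were left out, so adr-1 and adr-2 have no total RNA value here.

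Each small RNA table was fitted by itself with limma 3.58.1 in R 4.3.3, with a mean-variance trend, on log2(value + 1) where genes averaged 10 or more, with Benjamini-Hochberg adjustment at 0.05. All 7 loci passed that filter. Alternatives used edgeR 4.0.16, DESeq2 1.42.0, other pseudocounts, filters, scalings and left-out libraries; the fits were tested on simulated data. Values within a replicate number come from CPM of the recovered reads, with TMM factors estimated over all 6 libraries together and a pseudocount of 0.1 CPM. In total RNA a call needs bounds that do not overlap and at least 1 FPKM in either genotype. In mRNA a fold of 4 on FPKM plus 1 was used with no test. P-values measure the spread between these libraries, which may be technical or, in small RNA, differ by strain. The loci and lists were chosen with earlier results of these data known. Named genes were the 7 loci, genes overlapping or next to them within 10000 bp, fbxa-192, a low gene outside them, and the 5 genes most like F15D4.5; flp-16, romo-1 and members of the pathway list that were called were named after their values were seen. Locations come from RefSeq WBcel235. The reference table gives the name F07B7.1 to WBGene00021106, and the deposited FPKM tables give W09B7.1, which is used. Tables and plots were made with numpy 2.4.6, pandas 2.3.3 and matplotlib 3.10.9 in Python 3.11.15.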

Additional observations from a re-analysis of the deposited data

Results flagged for a closer look

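Y38F2AL.12 mRNA moved in opposite directions on nrde-3 RNAi in the genotypes. Against control RNAi, its log2 difference was 0.98 in the triple mutant adr-1 eri-6;adr-2, with 12.8 FPKM on nrde-3 RNAi and 5.997 FPKM on control RNAi. In wild type it was −0.45, with 1.48 FPKM on nrde-3 RNAi and 2.39 FPKM on control RNAi. Each value is 1 library, so the difference between the genotypes was not tested.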

How the results depend on the processing

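The counts of small RNA calls depended on the test. In adr-1;adr-2, limma called 0 genes, and 2 with a pseudocount of 10, 2 with joint scaling, 113 by DESeq2 and 166 by the 4-fold rule; leaving out 1 library gave 5 to 88 (5 without adr-1;adr-2 replicate 2, 88 without its replicate 1). In eri-6, limma called 0 genes, and 62 with joint scaling, 140 by DESeq2 and 180 by the 4-fold rule; leaving out 1 library gave 46 to 99 (46 without eri-6 replicate 1, 99 without wild-type replicate 1). With the replicate number as a block, 0 genes were called in adr-1;adr-2 and 106 in eri-6, none of these 106 among the loci. Libraries of 1 number deviated together (r = 0.561 for adr-1;adr-2 and wild type, 0.676 for eri-6 and wild type), as did adr-1;adr-2 and eri-6 (r = 0.711), and the labels do not say what a number marks. The cause of these changes was not tested.

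DESeq2 called F15D4.5, fezf-1, W09B7.1 and F07B7.1 lower in adr-1;adr-2. That contrast chose the loci, so these calls are no evidence about them, and W09B7.1 and F07B7.1 are not independent. F15D4.5 in eri-6 turned to a log2 fold of 0.36 without eri-6 replicate 1 and 0.60 without wild-type replicate 2, within −0.87 to 0.60 over libraries left out. The total RNA counts stayed within 1.5 times.

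In mRNA, triple mutant against wild type, 614 genes were past 4-fold on control RNAi (3422 past 2-fold, 1283 with a pseudocount of 0.1), 520 between libraries labelled drh-1 RNAi (1734, 1008) and 522 on nrde-3 RNAi (1635, 988). Against control RNAi the counts were 533 for drh-1 (2266, 981) and 379 for nrde-3 (2434, 793) in the triple mutant, and 280 for drh-1 (1610, 514) and 317 for nrde-3 (675, 516) in wild type. K09B3.1, under 1 FPKM, passed 4-fold between libraries labelled drh-1 RNAi with a pseudocount of 0.1, at a log2 difference of 2.01, against 0.38 with 1. Small RNA of fezf-1 and R13H4.5 in adr-1;adr-2 rests on 3 to 8 reads a library. That of K09B3.1 rests on 30 and 5 reads and that of Y38F2AL.12 on 14 and 18. FPKM under 1 limits fezf-1 and K09B3.1.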

Other observations

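Outside the 7 loci, the largest fold between nearest libraries on the low side in adr-1;adr-2 small RNA was 18.35, at the piRNA locus 21ur-10492 inside F15D4.5. The next was 7.47, at the F-box gene fbxa-192, above that of 4 of the 7 loci. Its RNA did not follow the pattern of F15D4.5. In total RNA fbxa-192 had 3.86 FPKM in the triple mutant, 11.03 in adr-1;adr-2 and 1.10 in eri-6, against 3.64 in wild type. By the deposited bounds it was higher in adr-1;adr-2 and lower in eri-6, and the triple mutant overlapped wild type. In mRNA fbxa-192 had 8.98 FPKM in the triple mutant on control RNAi, against 15.4 FPKM in wild type. In the authors' selected table of the triple mutant its small RNA was 3444 and 6181 normalised reads in the triple mutant, against 10915 and 16342 in wild type.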
